A study of Mus musculus with 4 samples.

Results

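The genes described are those of the mitochondrial ribosomal proteins, chosen by symbol alone: every gene of the ribosome profiling table whose name begins with Mrpl or Mrps and a digit, pseudogenes excepted. The rule found 78 of 25170 genes, 49 Mrpl and 29 Mrps, on 17 chromosomes. Differences were computed for the 74 whose mean level reached 1 FPKM, the unit of footprint fragments scaled to transcript length and to all mapped fragments. The member just inside this limit was Mrpl41, at 2.37 FPKM, and the one just outside was Mrps33, at 0.726.

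All 4 libraries came from wild-type E14 cells, an established line of mouse embryonic stem cells labelled as derived from the inner cell mass, kept on gelatin in serum medium with leukemia inhibitory factor. The DMSO group (2 libraries) received the solvent, and the PD group (2 libraries) received 1 µM of a compound that the labels call only PD, each for 3 passages. The study's title and design place the treatment in a study of the kinase Mek, and the comparison asks how ribosome-bound RNA differs after it. Whether the replicates are separate cultures is not in the labels, and the spread behind each p-value may therefore be technical. Both groups are 1 cell line, and no other line is used here.

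Mitochondria keep their own ribosome, which makes the few membrane proteins that mitochondrial DNA encodes, all of them parts of the respiratory chain and of ATP synthase. Its RNAs come from mitochondrial DNA, whereas all its proteins are encoded in the nucleus, made on cytosolic ribosomes and imported. Some of these proteins have counterparts in bacterial ribosomes, and others exist only in mitochondria; each is normally built into a large (Mrpl) or a small (Mrps) subunit, with a few whose symbol names the other one. Footprints on these genes are therefore a record of cytosolic translation, and they follow the amount of mRNA as well as the density of ribosomes on it; separate mRNA levels were not used here. In bulk samples such as these, fewer cells that make an RNA and less RNA per cell cannot be told apart.

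Depth was read from the steps of the FPKM values. With DMSO replicate 1 set to 1, the second DMSO library had a depth of 1.42, and the PD libraries had 0.464 (replicate 1) and 0.201 (replicate 2), so both PD libraries were shallower and depth moved with treatment. Whole reads were recovered for 53 of the 74 members, with medians of 124 and 147 reads under DMSO and of 54 and 24 under PD. The true number of reads may be a multiple of the recovered one. All 11 embryonic stem cell markers on the list had means above 1 FPKM, Pou5f1 among them at 228 to 326 FPKM per library, and the list summed to 2519 and 2503 FPKM in DMSO and to 2599 and 4170 in PD. The highest sum was carried by Dppa5a, at 1414 and 1633 FPKM in DMSO and 1421 and 3203 in PD. Of 12 feeder or fibroblast markers, Postn, S100a4 and Lum were listed at 0 in all 4 libraries, and 5 had a mean of at least 1 FPKM. The summed level of this list was 200.2 and 137 FPKM under DMSO and 291 and 274 under PD, most of it Vim and Fn1. The higher sums in PD were carried by Vim, at 105 and 29.7 FPKM in DMSO and 207 and 185 in PD. Fn1 was lower in PD, at 86.3 and 103 FPKM in DMSO and 79.3 and 80.1 in PD. The part of this list in the results below was not tested. Of 10 markers of differentiated cells, Gata6 and Cdx2 were listed at 0 in all 4 libraries, and the list summed to 8.47 and 12.7 FPKM in DMSO and to 5.29 and 14.3 in PD.

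Footprints on the mitochondrial ribosomal protein genes gave no call between PD and DMSO. Over all 9741 genes tested, limma called 0.0308% higher and 0.226% lower at an adjusted p under 0.05; of the 74 members, 0 were called in either direction. Of the 8895 protein-coding genes tested, as all members are, 0 were called by limma, with 458 at an unadjusted p under 0.05 (5.15%). The 25 calls were therefore all of genes that are not annotated as protein-coding. The lack of a call does not show that levels were equal. At an unadjusted p under 0.05 by limma there were 3 of the 74 members, Mrpl13, Mrps17 and Mrpl36, against 5.76% of all genes. With voom on recovered reads, 0 of the 53 members with reads were called, and 1 had an unadjusted p under 0.05. Mrps17, without recovered reads, was not in that fit, which covered 6557 genes. The median log2 difference, PD minus DMSO on the log2(FPKM + 1) scale, was -0.11 over the members and -0.02 over all genes tested. The middle 50% of members lay between -0.50 and 0.20, and 49 of 74 lay within 0.5 log2 units of 0, a share of 66.2% against 67.9% of all genes. The median size of a member's difference was 0.35 and the median SE 0.32.

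Both PD libraries lay above both DMSO libraries for 13 members, 17.6% of them, where the share of all genes was 17.5%. Both PD libraries lay below both DMSO libraries for 15 members, 20.3%, where the share of all genes was 18.3%. The other 46 members overlapped between the groups. These shares are near the background in both directions. With 2 libraries a group, an exact two-sided permutation test of a single value cannot go below 0.333.

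**Figure D1:**
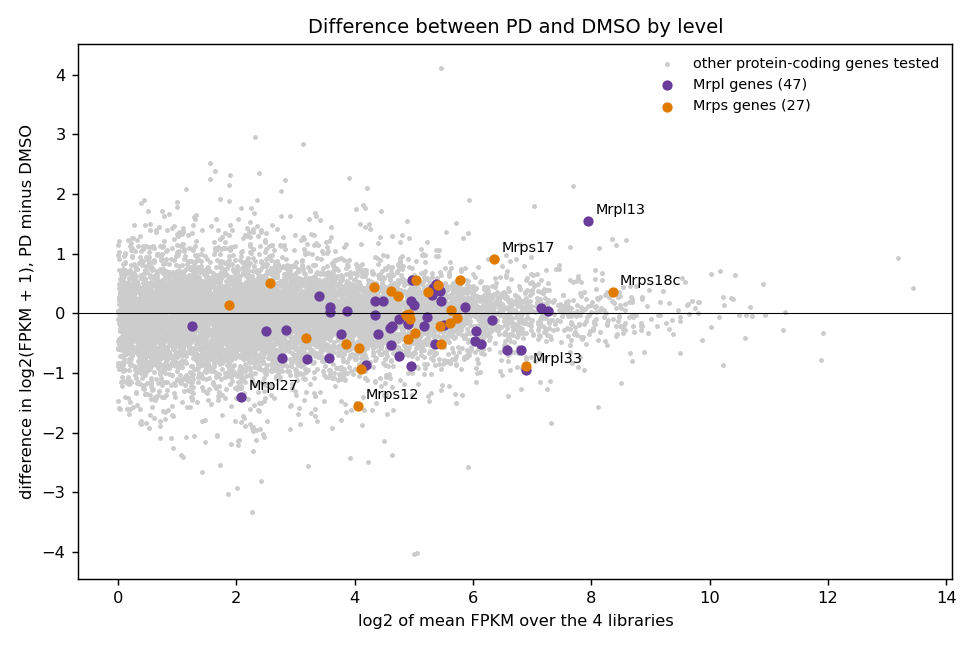
Difference in log2(FPKM + 1) between the PD and DMSO means (vertical axis) against the log2 of the mean FPKM (horizontal axis) for 47 Mrpl genes (purple), 27 Mrps genes (orange) and the other protein-coding genes tested (grey); 1 point is 1 gene. Most members lie within the cloud near 0, and Mrpl13, at a difference of 1.54, stands above the other members.

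Footprint levels differed widely among the members. Their mean over the 4 libraries ran from 2.37 FPKM for Mrpl41 to 329 for Mrps18c, a 139-fold range, with a median of 30.7 FPKM and the middle 50% between 17.4 and 45.0. Of the 74 members, 69 lay above the median of the protein-coding genes tested, which was 6.33 FPKM. As background, the complex holds most of its proteins in equal number. FPKM are scaled to transcript length, so the range of levels is not a range of footprint numbers. Mrpl17 had 377 and 282 recovered reads in DMSO at a mean of 10.6 FPKM. Mrps18c had 416 and 548 at a mean of 329. The part of transcript length in the range and in the order of the genes was not tested. The levels of the 74 genes ran together between libraries. Pearson's r on the log2(FPKM + 1) scale was 0.934 for the DMSO pair, 0.836 for the PD pair and 0.83 to 0.913 for pairs across groups. The points are genes, not replicates, and r is a description.

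Mrps18c, a protein of the small subunit with a bacterial counterpart (mm10, chromosome 5, 100798759 to 100804467), had the highest mean, with 299 and 278 FPKM under DMSO and 386 and 353 under PD. Mrpl13, second in the order, ranged from 110 to 449 FPKM and overlapped with it. Mrpl24, a large subunit protein near the exit of the peptide tunnel, had 135 and 168 FPKM in DMSO and 126 and 188 in PD. Mrpl24 and Mrpl40, the next in the order, did not differ beyond their spread, while every Mrps18c value lay above every Mrpl24 value. Mrpl40, a large subunit protein found only in mitochondria, was the steadiest of the abundant members, at 146 and 131 FPKM in DMSO and 148 and 145 in PD. Mrps28 completed the 5 highest, with 161 and 138 FPKM in DMSO and 125 and 51.5 in PD.

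At the other end, Mrpl41 had 2.53 and 2.40 FPKM in DMSO and 3.56 and 0.966 in PD. Mrps10 had 2.12 and 4.85 FPKM in DMSO and 5.14 and 2.63 in PD, and its groups overlapped as those of Mrpl41 did. Mrpl27, whose bacterial counterpart reaches the peptidyl transferase centre, had 7.35 and 4.33 FPKM in DMSO, 5.29 in PD replicate 1 and was listed at 0 in PD replicate 2. These values came from 6, 5, 2 and 0 recovered reads, and the log2 difference of Mrpl27 was -1.41 with PD replicate 2 and -0.09 without it. Mrpl19 and Mrps25 had means of 5.69 and 5.96 FPKM, with groups that overlapped. Their loci are 34157 and 78094 bases wider than in RefSeq. The locus of Mrps23, at a mean of 29.3 FPKM, is 96048 bases wider. The part of locus width in the levels was not tested. Mrpl12, which forms the flexible stalk of the large subunit and is known to be present there in several copies, was not above the other members: it had 43.5 and 21.1 FPKM in DMSO and 34.7 and 20.6 in PD, a mean of 30.0 that is close to the members' median.

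**Figure D2:**
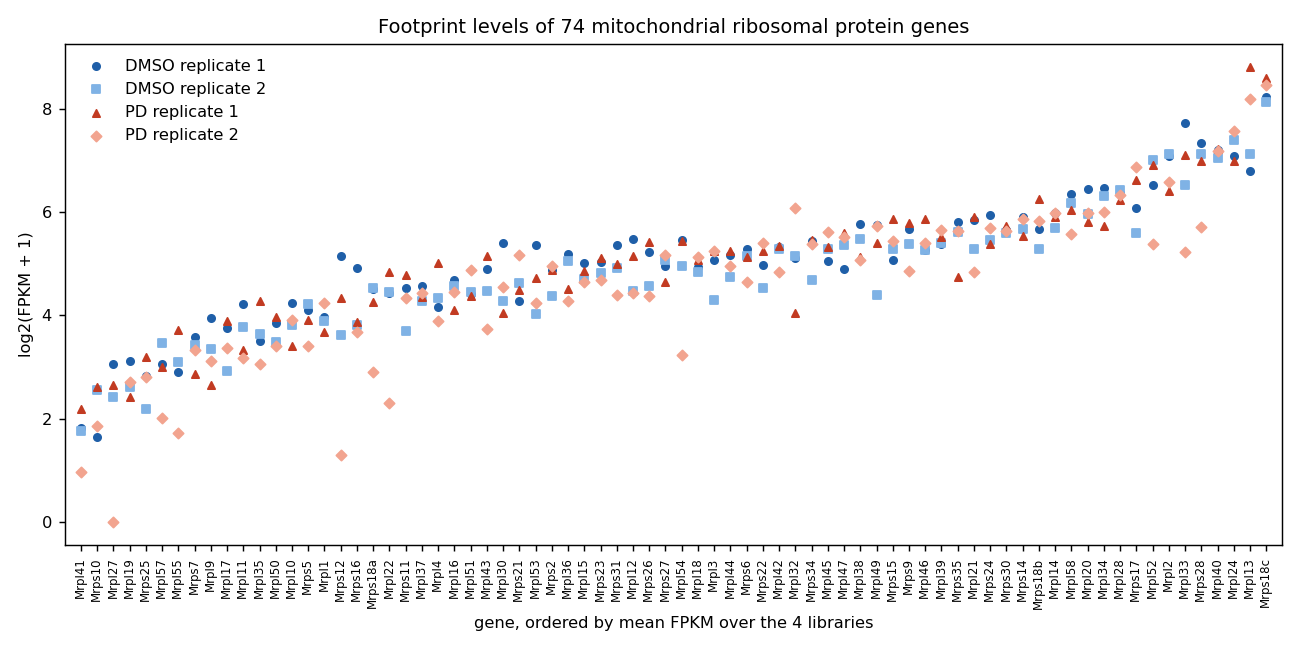
Level of each of the 74 members in each library, as log2(FPKM + 1), with genes ordered from the lowest to the highest mean. Blue symbols are DMSO and red symbols are PD libraries; PD replicate 2 (pale diamonds) is the lowest library for 30 of the 74 genes, far below the others for Mrps12 at 1.46 FPKM and Mrpl27 at 0.

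The 4 members under the limit were Mrpl23 and Mrps36, listed at 0 in all 4 libraries, Mrpl48 and Mrps33. Mrpl48, whose locus is 32967 bases wider than in RefSeq, had 1.46 and 0.229 FPKM in DMSO. It had 0.234 in PD replicate 1 and 0 in PD replicate 2. Mrps33 had 1.27 and 0.538 FPKM in DMSO and 1.095 and 0 in PD. Of the 78 members, 4 have pseudogenes that carry their name in the RefSeq table: Mrpl23 (1), Mrpl27 (1), Mrpl48 (1) and Mrps36 (3). 3 of these are under the limit, and Mrpl27 is the third lowest above it. The sources used here do not say how reads with several matches were assigned, and the part of this step in the low values was not tested. Mrps36 is also known as a subunit of the 2-oxoglutarate dehydrogenase complex rather than of the ribosome.

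Mrpl13, a large subunit protein with a bacterial counterpart (chromosome 15, 55534095 to 55557312), had the largest difference towards PD. Its level was 110 and 138 FPKM under DMSO against 449 and 292 under PD. Both PD values were above both DMSO values, although the PD libraries also differed from each other. The mean was 124 ± 19.5 FPKM under DMSO and 370 ± 111 under PD (SD, n = 2); on the log2 scale the difference was 1.54, SE 0.34, and limma's adjusted p was 0.717. The reads behind these values were many, at 299, 529, 563 and 159, so that PD replicate 1 held more reads of Mrpl13 than DMSO replicate 2, the deeper library. Over the alternatives and left-out libraries the difference ran from 1.23 to 1.85, with adjusted p from 0.128 to 1.

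Mrps17, which binds early to the small subunit RNA in the bacterial ribosome, came next among the members that were higher in both PD libraries. It had 66.8 and 47.5 FPKM in DMSO and 97.4 and 116 in PD, a difference of 0.90, SE 0.30 (limma adjusted p = 0.823). Mrps22, a small subunit protein found only in mitochondria, had 30.7 and 22.1 FPKM in DMSO and 36.7 and 41.2 in PD. Mrps18b, a member of the S18 family, had 49.9 and 38.1 FPKM in DMSO and 74.9 and 55.9 in PD. The log2 differences of Mrps22 and Mrps18b were both 0.56, each with an SE of 0.28 to 0.30, and neither passed. Without DMSO replicate 2 that of Mrps22 was 0.33, and without PD replicate 1 that of Mrps18b was 0.35.

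Mrpl3, a large subunit protein with a bacterial counterpart, had 32.6 and 18.7 FPKM in DMSO and 36.7 and 36.8 in PD. The PD values were close together, and the gap to the higher DMSO library was smaller than the gap between the DMSO libraries. Mrps15 had 32.8 and 38.1 FPKM in DMSO and 57.5 and 42.2 in PD. Mrpl47, which lies near the exit of the peptide tunnel, had 29.0 and 40.02 FPKM in DMSO and 47.2 and 44.8 in PD. Mrpl46 had 37.6 and 37.2 FPKM in DMSO and 57.4 and 41.5 in PD. When single libraries were left out, the difference of Mrpl3 ran from 0.17 (without DMSO replicate 2) to 0.94, that of Mrps15 from 0.25 (without PD replicate 1) to 0.69, that of Mrpl47 from 0.20 (without DMSO replicate 1) to 0.65 and that of Mrpl46 from 0.15 (without PD replicate 1) to 0.60. The other 5 members above in both PD libraries were Mrps18c, Mrpl45, Mrps2, Mrpl18 and Mrpl39, with log2 differences of 0.36 down to 0.20 and none that passed.

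In the other direction, the lowest unadjusted p, 0.0405 by limma, was that of Mrpl36, a small zinc-binding protein of the large subunit (chromosome 13, 73331009 to 73332178). Its values were 35.5 and 32.2 FPKM under DMSO and 21.9 and 18.4 under PD, resting on 115, 148, 33 and 12 recovered reads. Replicates were close and the groups did not overlap, and the difference was -0.72, SE 0.25 (limma adjusted p = 0.83). Mrpl2, whose bacterial counterpart lies near the peptidyl transferase centre, also had close replicates and no overlap. It had 134 and 138 FPKM in DMSO and 83.4 and 94.5 in PD, a difference of -0.61, SE 0.24 (limma adjusted p = 0.837). Mrpl34 had 86.9 and 78.5 FPKM in DMSO and 52.4 and 62.7 in PD. Mrpl11, a protein of the stalk base, had 17.7 and 12.7 FPKM in DMSO and 9.04 and 8.004 in PD, and Mrpl9 had 14.5 and 9.15 in DMSO and 5.33 and 7.66 in PD. Both rested on 5 recovered reads in PD replicate 2. The differences of Mrpl34, Mrpl11 and Mrpl9 were -0.52, -0.76 and -0.76, and that of Mrpl9 was -0.46 without DMSO replicate 1.

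For 3 further members the difference came mostly from PD replicate 2, the shallowest library. Mrps18a had 21.8 and 22.1 FPKM in DMSO, 18.3 in PD replicate 1 and, from 4 recovered reads, 6.47 in PD replicate 2. Mrps28, a small subunit protein with a bacterial counterpart, had 161, 138, 125 and 51.5 FPKM in the same order, the last from 25 recovered reads. Mrpl57 had 7.34 and 10.002 FPKM in DMSO and 7.03 and 3.04 in PD. Their log2 differences were -0.94, -0.88 and -0.75, and without PD replicate 2 all 3 were -0.25. The other 7 members below in both PD libraries were Mrpl38, Mrps5, Mrpl58, Mrps7, Mrpl16, Mrps6 and Mrpl28, with differences from -0.52 to -0.11. Mrpl58 encodes a peptidyl-tRNA hydrolase that is built into the large subunit and had 80.3 and 71.6 FPKM in DMSO and 64.6 and 46.6 in PD.

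**Figure D3:**
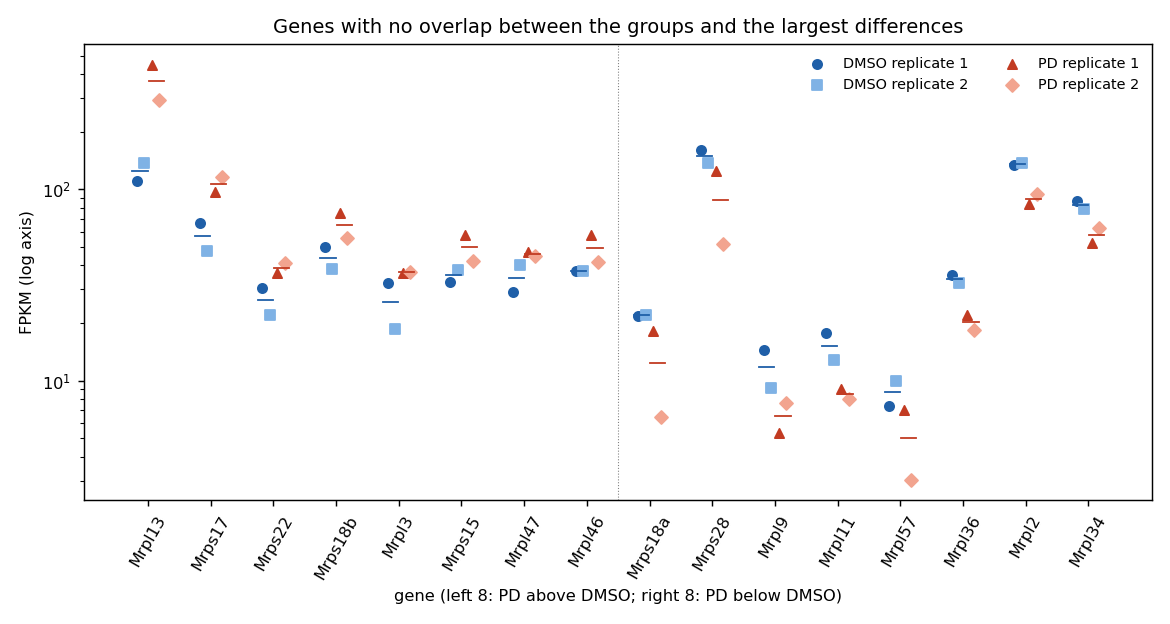
FPKM in each library (log axis) for the 8 members with the largest differences among those above in both PD libraries (left of the dotted line) and the 8 among those below in both (right). Symbols are libraries and short lines are group means of 2 libraries; the gap is widest for Mrpl13, and Mrps18a, Mrps28 and Mrpl57 have PD replicate 2 well below PD replicate 1.

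The S18 family holds members of common descent whose differences had unlike signs. Mammals have 3 genes for it: the Mrps18c protein takes the place of the bacterial S18, the Mrps18b protein also sits in the small subunit, and the Mrps18a protein, against its symbol, sits in the large one. Their levels were ordered Mrps18c, Mrps18b and Mrps18a, at means of 329, 54.7 and 17.2 FPKM, and no library of one overlapped with a library of another. Mrps18c and Mrps18b were above in both PD libraries, with differences of 0.36 and 0.56, and Mrps18a was below in both, with -0.94. None of the 3 passed (limma adjusted p = 0.837 for each).

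The subunits were described apart. The 47 tested Mrpl genes had a median difference of -0.20 and a median level of 30.9 FPKM, and the 27 tested Mrps genes had -0.03 and 30.5 FPKM. Of the Mrpl genes, 7 (14.9%) were above and 10 (21.3%) below in both PD libraries, and of the Mrps genes, 6 (22.2%) and 5 (18.5%), beside 17.5% and 18.3% of all genes tested. Among large subunit proteins with bacterial counterparts, 4 of 28 tested were above and 7 below, with a median of -0.19; among those found only in mitochondria, 3 of 19 were above and 3 below, with a median of -0.02. These counts and those that follow stand beside the same 17.5% and 18.3%. The small subunit gave 4 of 16 above and 4 below (median -0.13) for proteins with bacterial counterparts, and 1 of 8 above and 0 below (median -0.02) for those found only in mitochondria. 0 members of any of these lists were called by limma, over all genes tested. Mrpl55, Mrps18a and Mrps18b were tested but were in none of the lists of proteins with bacterial counterparts or found only in mitochondria.

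Within each group the members stood higher in replicate 1 more often than in replicate 2. Replicate 1 was the higher of the DMSO libraries for 53 of 74 members, 71.6%, against 50.6% of all genes tested. PD replicate 1 was the higher of the PD libraries for 45 members, 60.8%, against 49.8% of all genes. PD replicate 2 was the lowest library for 30 members, 40.5%, against 30.5% of all genes, and DMSO replicate 2 was the lowest for 19. The median level of the 74 members was 34.0 and 25.4 FPKM under DMSO and 33.6 and 28.0 under PD, so that the gap between replicates was wider than the gap between groups. The summed level of all 78 members was 1.31% and 1.17% of the protein-coding FPKM under DMSO and 1.37% and 1.142% under PD, and the groups overlapped.

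The members with the widest ranges over libraries, named after their values were seen, mostly had their lowest value in PD replicate 2. Mrps12, a protein of the decoding centre, had 34.5 and 11.2 FPKM in DMSO, 19.3 in PD replicate 1 and 1.46 in PD replicate 2, a 23.6-fold range. Mrpl22, at the peptide tunnel, had 20.7 and 20.8 FPKM in DMSO and 27.5 and 3.95 in PD, the last from 1 recovered read. Mrpl33 had 210 and 90.4 FPKM in DMSO and 137 and 36.5 in PD, and Mrpl54 had 43.1 and 30.0 in DMSO and 42.3 and 8.34 in PD. Mrpl55 had 6.53 and 7.57 FPKM in DMSO and 12.2 and 2.32 in PD. For Mrpl32 it was PD replicate 1 that was lowest and PD replicate 2 that was highest, at 33.5 and 34.7 FPKM in DMSO, 15.6 and then 66.3 in PD. The groups overlapped for all 6. The steadiest member was Mrps30, which despite its symbol belongs to the large subunit, at 49.6 and 47.6 FPKM in DMSO and 52.0 and 48.7 in PD, a 1.09-fold range.

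The median size of the differences was largest in the members with the fewest recovered reads. Since the true number may be a multiple of the recovered one, these classes do not order the members strictly by coverage. Mrpl40, at a mean of 142 FPKM, had 70, 89, 33 and 14 recovered reads. For the 14 members with under 60 recovered reads on average over the 4 libraries, the median absolute difference between PD and DMSO was 0.53 log2 units, and PD replicate 2 held a median of 6 reads. For the 20 members with 60 to 110 reads it was 0.32, and for the 19 with more than 110 reads it was 0.30, with medians of 18.5 and 37 reads in PD replicate 2. The median signed difference was -0.53 in the class under 60 recovered reads and -0.05 and -0.09 in the others. Single differences ran from -1.41 to 0.45 in the class under 60 recovered reads. In the class over 110 they ran from -0.95 to 1.54, the value of Mrpl13. The part of counting error in the values of the class under 60 was not tested.

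**Figure D4:**
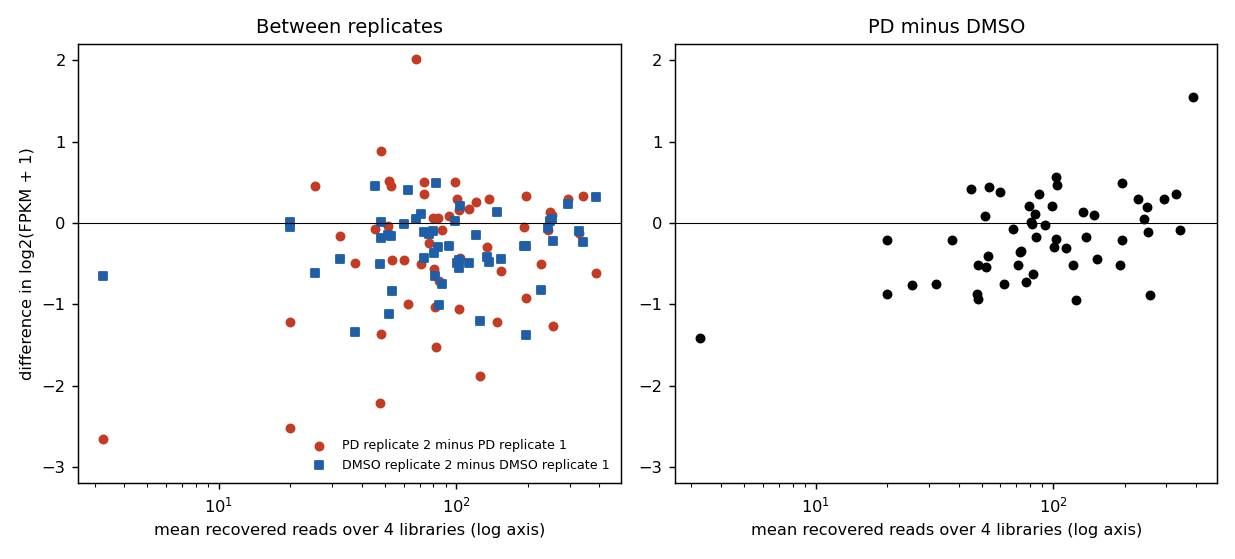
Left: differences between the replicates of each group in log2(FPKM + 1), against the mean recovered reads over the 4 libraries (log axis), for the 53 members with recovered reads; red circles are the PD libraries and blue squares the DMSO libraries. Right: the difference between PD and DMSO for the same genes. Below 60 recovered reads the median difference is -0.53, and Mrpl13, at 1.54, is the highest point of the members with more than 110.

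Other genes of mitochondrial translation gave no call either. Of 5 further ribosomal proteins that go by other symbols, Dap3 and Ptcd3 were above and Aurkaip1 below in both PD libraries. Over all genes tested, 17.5% were above and 18.3% below. The log2 difference of Dap3 was 0.15. Aurkaip1, a small subunit protein, had 140.0 and 128 FPKM in DMSO and 88.8 and 79.8 in PD, with a log2 difference of -0.66 (limma adjusted p = 0.837). Of 11 tested translation factors, 2 were above and 2 below in both PD libraries, where 17.5% and 18.3% of all genes were, and the median difference was 0.09. Taco1, which activates translation of a cytochrome oxidase subunit, had 4.67 and 3.30 FPKM in DMSO and 10.96 and 8.87 in PD, a log2 difference of 1.138 (limma adjusted p = 0.8). Mtif3, an initiation factor, had 1.58 and 1.13 FPKM in DMSO and 2.39 and 3.12 in PD. Mtrf1, of the release factor family, had 2.99 and 3.40 FPKM in DMSO and 0.842 and 2.58 in PD. Its PD values rested on 3 and 4 recovered reads. The elongation factor gene Tufm, named after its values were seen, was under the limit, at 0.290, 1.55, 0.939 and 0 FPKM.

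Of 25 tested assembly factors of the mitochondrial ribosome, 5 were above and 3 below in both PD libraries, beside 17.5% and 18.3% of all genes, with a median of 0.10. Tfb1m, which dimethylates the small subunit RNA, had 3.66 and 5.69 FPKM in DMSO and 8.29 and 13.6 in PD. Its log2 difference was 1.06, and the PD values rested on 21 and 15 recovered reads. Mtg1, a GTPase of large subunit assembly, had 11.2 and 11.1 FPKM in DMSO and 6.02 and 5.39 in PD. Its difference was -0.85 with close replicates, and the PD values rested on 18 and 7 recovered reads. Mettl15, a methyltransferase of the small subunit RNA, had 1.66 and 1.53 FPKM in DMSO. It had 0.827 in PD replicate 1, from 3 recovered reads, and 0 in PD replicate 2. Of 7 tested factors of mitochondrial RNA and of membrane insertion, 2 were above and 1 below, beside the same shares. Slirp, an RNA-binding partner of Lrpprc, was the most abundant of these at 689 and 698 FPKM in DMSO and 562 and 586 in PD, while Oxa1l, the insertase that receives the new proteins, had 6.48 and 4.66 in DMSO and 6.59 and 10.6 in PD. None of the 13 protein genes of mitochondrial DNA was found by its symbol among the genes with values, so they were not analysed here. 0 genes of these lists were called by limma.

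Start sites were looked up in RefSeq (GRCm38.p6, the assembly of mm10), which gave promoter windows for 69 of the 78 members. Many of these genes begin close to a gene on the other strand: 24 of the 69 members, 34.8%, had the start of another protein-coding gene within 1000 bases on the opposite strand and pointing away, against 15.2% of the 7218 tested protein-coding genes with windows; the difference was not tested. There were 23 such pairs, with starts from 32 to 935 bases apart. Several partners also serve mitochondria: Sars2, a mitochondrial seryl-tRNA synthetase, is paired with Mrps12, Twnk, the mitochondrial DNA helicase, with Mrpl43, and Ndufb5, a respiratory chain subunit, with Mrpl47. In 1 pair both genes are members: Mrpl46 and Mrps11 start 42 bases apart on chromosome 7, leaving a stretch of 41 bases between them. Mrps11 had 22.2 and 12.02 FPKM in DMSO and 26.7 and 19.2 in PD, a difference of 0.45 beside the 0.38 of Mrpl46, with groups of Mrps11 that overlapped.

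The stretches before the starts of 5 members are shown as examples of starts with and without the motifs searched, on genes from either side of the comparison; the first is the stretch that Mrpl46 and Mrps11 share, and the others are the 100 bases before the start, read 5′ to 3′ on the strand of the gene named first. Capitals mark the ETS core CCGGAAG, the NRF1 core GCATGCGC (in Mrpl9 it lies on both strands with overlap) or the CCAAT box (written ATTGG where it lies on the other strand), and all lower case means that none of the motifs searched lies there.
Mrpl46 (chr7:78783090-78783130, minus strand): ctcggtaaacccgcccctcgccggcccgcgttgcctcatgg
Mrps17 (chr5:129715397-129715496, plus strand): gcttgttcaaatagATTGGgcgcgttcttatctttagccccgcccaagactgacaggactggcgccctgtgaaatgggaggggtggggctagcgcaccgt
Mrps22 (chr9:98601680-98601779, minus strand): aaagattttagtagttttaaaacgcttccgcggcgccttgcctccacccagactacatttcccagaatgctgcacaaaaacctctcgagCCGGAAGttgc
Mrps18a (chr17:46110904-46111003, plus strand): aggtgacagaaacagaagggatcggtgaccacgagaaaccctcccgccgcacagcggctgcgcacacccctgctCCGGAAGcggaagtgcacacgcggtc
Mrpl9 (chr3:94443236-94443335, plus strand): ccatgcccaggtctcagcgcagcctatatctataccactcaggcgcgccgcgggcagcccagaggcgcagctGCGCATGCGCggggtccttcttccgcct

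Motifs were searched on both strands of the whole windows, from 250 bases before to 50 after each start. The ETS core CCGGAAG lay in the windows of 26 of 69 members, 37.7%, against 23.2% of tested protein-coding genes and 12.9% of all protein-coding genes with windows. The NRF1 core GCATGCGC lay in 8 members, Mrpl9 and Mrps18b among them, 11.6% against 7.13% of tested genes. A YY1 motif was found in 5 members, 7.25% against 2.95%, and the E-box CACGTG in 5, 7.25% against 12.7% of tested genes. CCAAT was about as common as elsewhere, at 39.1% against 44.7%, and TATAAA was found in 5 members, 7.25% against 8.26%. The ETS core was present before genes on either side of the comparison, such as Mrps22 (0.56) and Mrps18a (-0.94). A match describes letters and not a bound site, and the differences between these shares were not tested.

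Members and their divergent partners had differences of the same sign in 10 of the 21 pairs with both genes tested, and across the 21 pairs the differences correlated at r = -0.137, a description over genes from the same 4 libraries. Mrps12 had -1.56 and its partner Sars2 0.44. Mrpl32 had -0.07, while its partner Psma2, a proteasome subunit, had 202 and 228 FPKM in DMSO and 76.9 and 122 in PD, a difference of -1.136 (limma adjusted p = 0.803). Mrpl2 and its partner Klc4, a kinesin light chain, were both below in both PD libraries, with -0.61 and -0.77. Levels also differed within pairs: Mrps18c, the most abundant member, had a mean of 329 FPKM, and its partner Helq, a DNA helicase whose start lies 159 bases away, had 1.58. 0 of the 21 partners were called by limma.

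**Figure D5:**
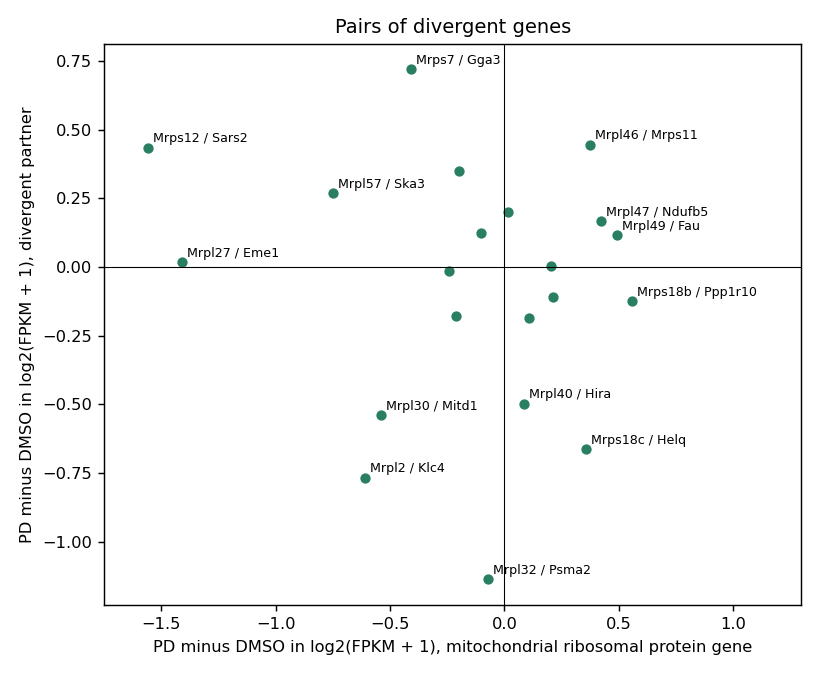
Difference between PD and DMSO in log2(FPKM + 1) for 21 pairs of divergent genes, with the mitochondrial ribosomal protein gene on the horizontal axis and its partner on the vertical axis; 1 point is 1 pair, and pairs with a difference over 0.4 in either gene are labelled. Points lie in all 4 quadrants, with Mrpl46 and Mrps11 both above 0 and Mrps12 below 0 beside Sars2 above it.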

How the data were processed

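The members and gene lists were chosen with earlier results of these data known. The authors deposited FPKM per gene for the 4 libraries, in the layout of Cufflinks, per the file headers. FastQC, Trimmomatic, Bowtie2, STAR, Cufflinks and mm10 are named in the submitters' processing notes; versions, strand and the handling of reads with several matches are not given in the sources used here. Small RNA genes took 99.5% to 99.7% of each library's FPKM sum. Genes reaching a mean of 1 FPKM were tested, without the 1 gene of failed status. Values on the log2(FPKM + 1) scale entered limma 3.58.1 (R 4.3.3; lmFit, eBayes with trend) with group as the only term, 2 residual degrees of freedom and Benjamini-Hochberg adjustment over all genes tested. Differences are PD minus DMSO on that scale, which understates changes of low genes. Coordinates are those of the table in mm10, 1-based; for 9 members the locus is over 1000 bases wider than in RefSeq. Whole reads were recovered, within 0.02 reads, for 67.3% of the 8932 tested genes above 0 in all libraries, against 4.56% with wrong steps. The read recovery and the limma fit were each tested on simulated data. Named members are, per direction, the 8 largest differences without overlap, the 5 highest and 5 lowest levels, Mrpl12, the S18 family, those under the limit, and up to 3 genes of each other list; other members are named in lists, for a pair of starts or after their values were seen. Alternatives were pseudocounts, filters, scalings, the variance trend, a replicate block, left-out libraries and voom.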

Additional observations from a re-analysis of the deposited data

How the results depend on the processing

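No member was called by limma under any alternative with all 4 libraries. At an unadjusted p under 0.05 there were from 1 member (voom, 53 tested) to 6 members (replicate block, 74 tested). Over all genes the share under this threshold was 5.76% in the main limma fit, and it is not given here for the alternatives. The limit to protein-coding genes was chosen after the data were seen. Over all genes, the 25 calls became 0 when FPKM were rescaled without small RNA genes, with voom on recovered reads and among protein-coding genes alone, and ran from 0 without either DMSO library to 23 without PD replicate 1 and 47 without PD replicate 2; the cause was not tested. Members without overlap numbered 28, and 40 to 60 when 1 library was left out, where fewer samples are compared: 37.8% became 54.1% to 81.1% of members, while 35.8% became 61.2% to 74.4% of all genes. The median difference of the members was -0.02 with quantile normalization and -0.17 after rescaling, and with left-out libraries it ran from -0.22 (without DMSO replicate 2) to 0.06 (without PD replicate 2), so its sign rests on single libraries. That of Mrpl genes ran from -0.27 to 0.04 and that of Mrps genes from -0.15 to 0.10 with left-out libraries. The replicate block gave 19 calls over all genes, 0 among members and a median of -0.11; same-numbered libraries deviated together at r = 0.203 across protein-coding genes, but with 2 pairs the labels give only a shared number. Of the named members, the sign turned for Mrpl24 (-0.25 to 0.32), Mrpl41 (-0.82 to 0.40), Mrps10 (-0.31 to 0.60) and Mrpl12 (-0.68 to 0.33) when single libraries were left out, and for Mrpl41 with voom (0.0021); the cause was not tested. Depth was lowest in PD replicate 2, with a median of 24 recovered reads over the 53 members that have them.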
